A study of Rattus norvegicus with 10 samples.

Results

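The genes described here encode versican (Vcan) and aggrecan (Acan), the hyaluronan link protein (Hapln1), a hyaluronan synthase (Has2) and 5 small leucine-rich proteoglycans, biglycan (Bgn), decorin (Dcn), lumican (Lum), fibromodulin (Fmod) and osteoglycin (Ogn). They were chosen by symbol, as 9 of the 18025 genes for which expression values were deposited, and all 9 passed the filter on low values. The choice was made with earlier results of the same comparison in view, so the differences between groups are given for these 9 genes as a description with errors. No p-value is given for them, and how many passed the threshold is only counted beside the share over all genes. The values come from hearts of wild-type Sprague-Dawley rat fetuses at embryonic day 19.5 (E19.5). In the hyperglycemia (HG) group, 5 libraries, the mothers had received streptozotocin (STZ), a toxin of the insulin-producing beta cells, by 3 daily intraperitoneal injections after mating. In the control (CON) group, also 5 libraries, the mothers had received the citric acid buffer that served as its solvent. The tissue was labelled as heart in every library, while the study's text names isolated cardiomyocytes for part of the sequencing results. The labels give neither litter nor sex, so that fetuses of 1 mother cannot be told from fetuses of different mothers, and p-values measure the spread between these samples.

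Versican and aggrecan are lecticans, large proteoglycans that carry many chondroitin sulfate chains and bind hyaluronan at one end. Hyaluronan is a long sugar polymer made at the cell membrane by hyaluronan synthases, and link protein locks the lectican to it. In the embryonic heart this gel fills the cardiac jelly and the endocardial cushions from which valves form. The small leucine-rich proteoglycans are short, horseshoe-shaped proteins that bind collagen fibrils and growth factors and are abundant in fibroblasts, valves and vessel walls.

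Sequence upstream of the start site was at hand in RefSeq (build GRCr8) for 6 of the 9 genes, all but Has2, Bgn and Dcn. The 250 bases before the start are printed, 5′ to 3′ on the gene's own strand, for the 4 genes with the largest differences between groups in either direction. These are Vcan on the minus strand (chr2:22595956-22596205, the first of 2 listed start sites), Hapln1 on the plus strand (chr2:22366717-22366966), Acan on the plus strand (chr1:142390701-142390950) and Lum on the plus strand (chr7:34245456-34245705). Capitals mark matches, on either strand, to 5 motifs: the TATA box TATAAA, the CCAAT box CCAAT, the GC box GGGCGG, the AP-1 element TGANTCA and the TEAD element CATTCC.
Vcan: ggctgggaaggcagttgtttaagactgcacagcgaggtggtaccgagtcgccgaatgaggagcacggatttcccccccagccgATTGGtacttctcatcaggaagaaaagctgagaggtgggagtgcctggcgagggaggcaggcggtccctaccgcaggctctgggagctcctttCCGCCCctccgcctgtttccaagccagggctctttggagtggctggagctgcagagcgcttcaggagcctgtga
Hapln1: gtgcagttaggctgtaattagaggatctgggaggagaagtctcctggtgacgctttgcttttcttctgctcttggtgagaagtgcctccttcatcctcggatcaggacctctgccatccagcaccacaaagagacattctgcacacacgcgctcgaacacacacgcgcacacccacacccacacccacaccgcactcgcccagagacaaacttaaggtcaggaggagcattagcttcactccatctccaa
Acan: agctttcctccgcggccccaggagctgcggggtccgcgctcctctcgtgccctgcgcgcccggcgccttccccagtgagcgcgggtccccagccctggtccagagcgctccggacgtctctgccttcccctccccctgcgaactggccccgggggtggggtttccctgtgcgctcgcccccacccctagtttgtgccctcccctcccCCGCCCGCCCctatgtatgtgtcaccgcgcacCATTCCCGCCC
Lum: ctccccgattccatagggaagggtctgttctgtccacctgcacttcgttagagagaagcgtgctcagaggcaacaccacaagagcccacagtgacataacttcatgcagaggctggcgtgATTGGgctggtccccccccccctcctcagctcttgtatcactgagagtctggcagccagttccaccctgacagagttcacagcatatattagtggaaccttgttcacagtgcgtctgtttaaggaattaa

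The 4 upstream sequences differed in base composition and in the motifs they held. GC content was 73.6% for Acan, 61.6% for Vcan, 54% for Hapln1 and 52.8% for Lum, against a median of 51.2% over all 33469 upstream windows of this length. Vcan held a CCAAT box at -167 to -163 and a GC box at -74 to -69, both on the opposite strand. Acan held 3 GC boxes on the opposite strand, of which the first 2 (-43 to -38 and -39 to -34) overlap, and a TEAD element at -11 to -6 that shares 1 base with the GC box at -6 to -1. Lum held a CCAAT box at -130 to -126 on the opposite strand, and none of the 5 motifs was found in the Hapln1 window. Of the genes not printed, Fmod held a CCAAT and a GC box, and Ogn held overlapping TATA matches on both strands and a TEAD element. A GC box was present in 30.5% of all windows, a CCAAT box in 34%, a TATA box in 12.9%, a TEAD element in 12.1% and an AP-1 element in 6.34%. Such matches describe letters and no measured binding, and neither group of genes was tested for them.

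Before the values, the pair of libraries numbered 4 has to be described, because several of the 9 genes were low in both. CON library 4 held 0.246 FPKM of Acan and HG library 4 held 0.041 FPKM, the lowest value of each group. FPKM are reads scaled by the authors to the length of the gene and to the reads of the library. Elastin (Eln), the core of elastic fibres, was at 47.2 FPKM in CON library 4 against 265 to 389 in the other CON libraries, and at 38.6 in HG library 4 against 130 to 203 in the other HG libraries. Fbln5, which helps assemble those fibres, was at 3.85 against 27.4 to 37.7 FPKM in CON and at 3.84 against 18 to 26.7 in HG. Chondromodulin (Cnmd), a gene of cartilage and heart valves, was at 0.0388 and 0.16 FPKM in these libraries against 0.68 to 1.13 and 0.665 to 1.81 in the others. Eln, Fbln5 and Cnmd were chosen after their values were seen. Both libraries had as many reads as the rest, and the part of dissection or tissue content in these low values was not tested. Values without both libraries, a choice made after the data were seen, are therefore given beside those with them.

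Depth was similar in both groups, with 17639895 to 18240006 reads on genes in a CON library and 16672876 to 19109844 in an HG library, as recovered from the steps of the FPKM values. Vcan rested on 6163 to 13373 reads per library, Hapln1 on 450 to 1267, Has2 on 112 to 191, and Acan on 216 at most and on 6 in HG library 4. Differences were fitted with limma on log2(FPKM + 0.1), which understates the change of low genes, and a gene was called at a Benjamini-Hochberg adjusted p under 0.05. Of all 14542 genes tested, 40.1% were called, 28.4% as higher and 11.8% as lower in HG, and the groups did not overlap for 27.4%. Across all of them the middle log2 fold change was 0.09, and it was 0.01 once each library was scaled by median-of-ratios factors, a scaling under which 47.1% instead of 70.7% of the called genes were higher. Since FPKM are shares of a whole heart's RNA, fewer cells of a type and less RNA per cell cannot be told apart.

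Of the 9 genes, 6 were called, which is the contrast they were chosen on, so that nothing is read from it beside the 40.1% of all genes. Vcan and Hapln1 were higher in HG, Acan, Dcn, Lum and Ogn were lower, and Has2, Bgn and Fmod were not called. The groups did not overlap for 2 of the 9, Vcan and Hapln1, against 19.3% of all genes not overlapping with HG higher, and for 0 of the lower genes, against 8.12%. Of these 6, Acan alone also had an absolute log2 fold change above 1, and 1.94% of all genes tested were both called and past this size. Without both libraries numbered 4, 6 were again called, with Has2 in place of Ogn, and 5 did not overlap (Vcan, Acan, Hapln1, Has2 and Lum), where 35.6% of all genes were called and 34.8% did not overlap. Both libraries were left out because several of the 9 genes were low in them, so nothing is read from these counts either. For the same reason, smaller errors and lost overlaps of single genes without these libraries follow in part from that choice.

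**Figure D1:**
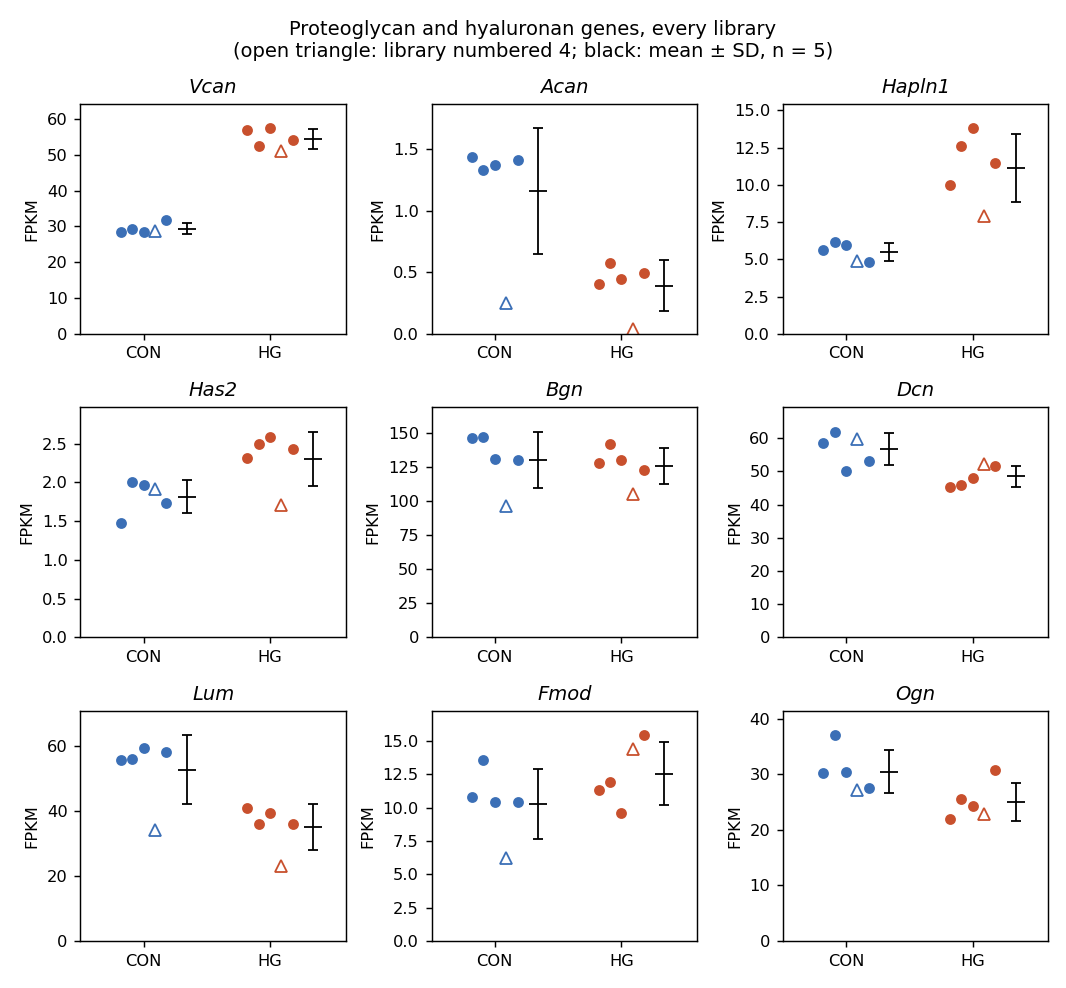
FPKM of the 9 genes in each of the 5 CON (blue) and 5 HG (red) libraries, on linear axes that start at 0. Points are libraries, open triangles the libraries numbered 4, and black bars the mean ± SD (n = 5). All HG values of Vcan (51.1 to 57.4) lie above all CON values (28.3 to 31.9), while the triangles are the lowest points of both groups for Acan, Lum and Bgn.

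Versican is the main lectican of the developing heart. Its level was 28.3, 29.2, 28.5, 28.8 and 31.9 FPKM in CON libraries 1 to 5 and 57, 52.5, 57.4, 51.1 and 54.2 FPKM in HG libraries 1 to 5. All HG libraries lay far above all CON libraries, with a narrow spread in each group. CON libraries averaged 29.3 ± 1.47 FPKM and HG libraries 54.4 ± 2.74 (mean ± SD of 5 libraries, as for the genes below), a ratio of means of 1.86. The log2 fold change was 0.89 ± 0.0456 (SE), and it was 0.80 with median-of-ratios factors and 0.91 without both libraries numbered 4. Library 4 stood within the rest of its group for Vcan in CON and was the lowest in HG.

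Link protein, the small protein that fixes a lectican to hyaluronan, also lay higher in HG. Hapln1 was at 5.63, 6.15, 5.95, 4.9 and 4.8 FPKM in CON libraries 1 to 5 and at 9.96, 12.6, 13.8, 7.94 and 11.5 FPKM in HG libraries 1 to 5. The groups did not overlap, although HG library 4 stood closer to the CON range than the others did. The mean was 5.49 ± 0.61 FPKM in CON and 11.2 ± 2.29 in HG, and the log2 fold change was 0.99 ± 0.132 (SE). It was 1.07 without both libraries numbered 4. Within each library Vcan exceeded Hapln1 by a mean ratio of 5.42 ± 0.823 in CON and 5.04 ± 1.01 in HG, with overlapping ranges (4.75 to 6.64 and 4.16 to 6.43).

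Has2 encodes the main hyaluronan synthase of the embryonic heart and was expressed at a low level. It was at 1.48, 2, 1.97, 1.91 and 1.73 FPKM in CON libraries 1 to 5 and at 2.32, 2.49, 2.58, 1.71 and 2.43 FPKM in HG libraries 1 to 5. In HG, 4 libraries lay above the whole CON range and library 4 within it. The log2 fold change was 0.32 ± 0.122 (SE) over all libraries and 0.44 without both libraries numbered 4, where the groups no longer overlapped. The ratio of Vcan to Has2 was 16.3 ± 2.24 in CON (14.5 to 19.1) and 24 ± 3.52 in HG (21.1 to 29.9), so that Vcan differed more than Has2 did. Whether the counting kept reads of the antisense transcript of Has2 apart is not given in the sources used here, although the library kit marks strand.

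Aggrecan, the lectican best known from cartilage and also made in valves and vessel walls, had the lowest level of the 9 genes in both groups. Acan was at 1.44, 1.33, 1.37, 0.246 and 1.41 FPKM in CON libraries 1 to 5 and at 0.404, 0.572, 0.446, 0.041 and 0.493 FPKM in HG libraries 1 to 5. Within each group 4 libraries were close together and library 4 was far below them, and the groups overlapped only through CON library 4. The mean was 1.16 ± 0.512 FPKM in CON and 0.391 ± 0.205 in HG, which gives -1.35 ± 0.486 (SE) as log2 fold change. Without both libraries numbered 4, the mean was 1.39 ± 0.0472 FPKM in CON and 0.479 ± 0.0718 in HG (n = 4 each), the log2 fold change was -1.37 ± 0.132 (SE) and the groups no longer overlapped. With HG library 4 alone left out it was -0.95, and with CON library 4 alone left out it was -1.77. The direction of Acan was opposite to that of Vcan, the other lectican of the 9.

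**Figure D2:**
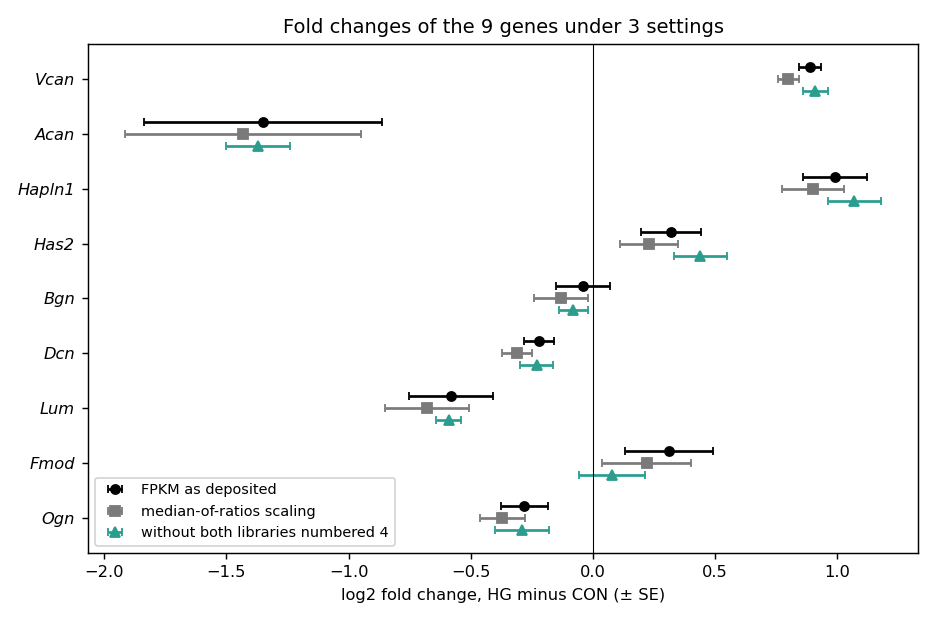
Log2 fold change (HG minus CON) with its SE for the 9 genes, from FPKM as deposited (black circles), after median-of-ratios scaling (grey squares) and without both libraries numbered 4 (green triangles, n = 4 per group). Scaling moves all 9 genes down by a similar amount, Vcan from 0.89 to 0.80. Leaving out both libraries narrows the error of Acan from 0.486 to 0.132 and that of Lum from 0.173 to 0.0511. Both genes were low in these libraries, which is why they were left out, so the narrower errors follow from that choice.

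Lumican and fibromodulin, which both bind collagen fibrils and regulate their thickness, differed in how they compared between groups. Lum was at 55.8, 56.1, 59.5, 34.1 and 58.4 FPKM in CON libraries 1 to 5 and at 41.1, 36.2, 39.4, 23 and 36.1 FPKM in HG libraries 1 to 5. Library 4 was the lowest of each group by a wide gap, and CON library 4 lay inside the HG range. The mean was 52.8 ± 10.5 FPKM in CON and 35.2 ± 7.13 in HG, and the log2 fold change was -0.58 ± 0.173 (SE). Without both libraries numbered 4 it was -0.59 ± 0.0511 (SE), from 57.4 ± 1.78 to 38.2 ± 2.46 FPKM (n = 4 each), with no overlap.

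Fmod was at 10.8, 13.6, 10.4, 6.23 and 10.4 FPKM in CON libraries 1 to 5 and at 11.3, 11.9, 9.61, 14.4 and 15.4 FPKM in HG libraries 1 to 5. The ranges overlapped over most of their length, and the libraries numbered 4 went different ways, the lowest value in CON and the second highest in HG. The log2 fold change was 0.31 ± 0.18 (SE) over all libraries and 0.08 without both libraries numbered 4. The ratio of Lum to Fmod was 5.23 ± 0.642 in CON (4.14 to 5.72) and 2.94 ± 1 in HG (1.59 to 4.09), ranges that did not overlap by a narrow gap, and 5.17 ± 0.723 and 3.28 ± 0.758 without both libraries numbered 4.

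Biglycan and decorin are close relatives that carry chondroitin or dermatan sulfate chains and bind collagen and TGF-beta. Bgn had the highest level of the 9 genes, at 146, 147, 131, 96.2 and 130 FPKM in CON libraries 1 to 5 and at 128, 142, 130, 105 and 123 FPKM in HG libraries 1 to 5. The groups overlapped throughout, library 4 was the lowest of both, and the log2 fold change was -0.04 ± 0.11 (SE), or -0.08 without both libraries numbered 4. Dcn was at 58.5, 61.9, 50.2, 59.8 and 53.2 FPKM in CON libraries 1 to 5 and at 45.3, 46, 47.9, 52.3 and 51.5 FPKM in HG libraries 1 to 5. Of the HG libraries, 3 lay below the whole CON range, and library 4 was the highest HG library for this gene. The mean of Dcn was 56.7 ± 4.86 FPKM in CON and 48.6 ± 3.17 in HG, a log2 fold change of -0.22 ± 0.0623 (SE).

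Osteoglycin, a small proteoglycan of connective tissue, was at 30.3, 37, 30.5, 27.2 and 27.5 FPKM in CON libraries 1 to 5 and at 22, 25.6, 24.3, 22.8 and 30.7 FPKM in HG libraries 1 to 5. In HG, 4 libraries were below every CON library and library 5 was within the CON range. The log2 fold change of Ogn was -0.28 ± 0.0978 (SE), and -0.29 without both libraries numbered 4.

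Ordered by mean FPKM, which is a level per gene length, the CON hearts had Bgn first, then Dcn, Lum, Ogn, Vcan, Fmod, Hapln1, Has2 and Acan. In HG the order was Bgn, Vcan, Dcn, Lum, Ogn, Fmod, Hapln1, Has2 and Acan, so that Vcan stood at place 2 instead of 5. Neighbours whose ranges overlapped were Dcn and Lum, Lum and Ogn, and Ogn and Vcan in CON, and Vcan and Dcn, Lum and Ogn, and Fmod and Hapln1 in HG. In HG, Vcan exceeded Dcn in 4 of 5 libraries. The ratio of Vcan to Dcn was 0.521 ± 0.0584 in CON (0.471 to 0.599) and 1.13 ± 0.112 in HG (0.977 to 1.26), and that of Vcan to Bgn was 0.231 ± 0.0434 (0.194 to 0.299) and 0.437 ± 0.0424 (0.37 to 0.489). Neither ratio overlapped between groups, with or without both libraries numbered 4, and a single scaling factor per library cancels in both. Vcan alone already separated the groups, at 31.9 FPKM at most in CON and 51.1 at least in HG. The genes were also chosen on this contrast, and how often ratios of other gene pairs fail to overlap was not tested. Nothing is therefore read from the lack of overlap of these ratios, or of Vcan to Has2 and Lum to Fmod. The ratios of Lum to Dcn, Bgn to Dcn and Dcn to Ogn all overlapped, with means of 0.943 and 0.732, of 2.31 and 2.6, and of 1.88 and 1.96 in CON and HG. Without both libraries numbered 4 these means were 1.04 and 0.805, 2.48 and 2.76, and 1.8 and 1.88, and the ranges still overlapped.

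**Figure D3:**
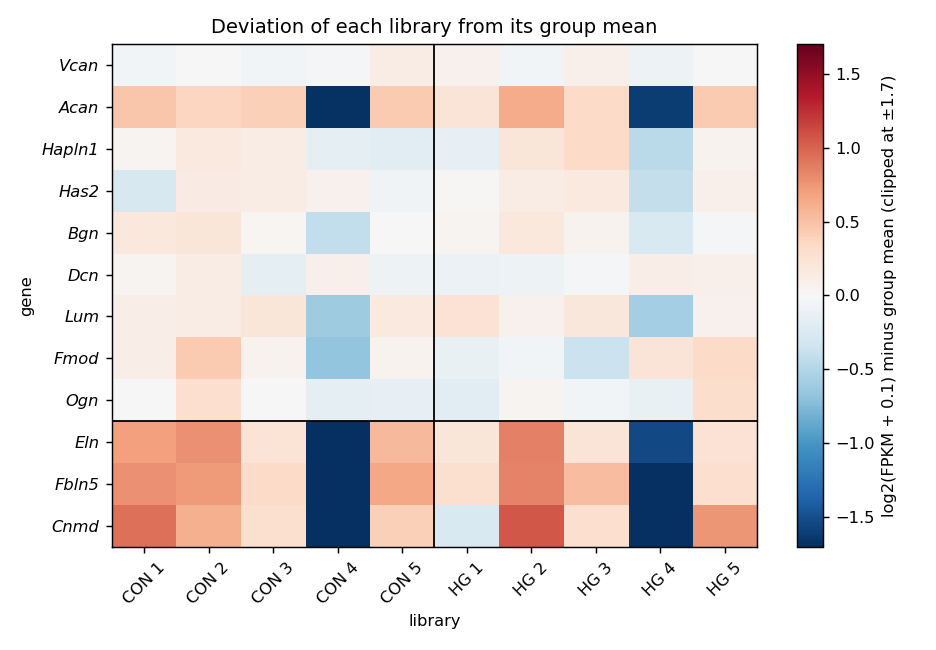
Deviation of each library (columns, 5 CON left and 5 HG right of the line) from its group mean in log2(FPKM + 0.1), for the 9 genes and, below the line, for Eln, Fbln5 and Cnmd. Blue is below and red above the mean, with colours clipped at ±1.7. The libraries numbered 4 are the darkest blue columns for Acan and the 3 genes below the line, paler for Lum and Bgn, and not blue for Dcn.

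Over the 10 libraries, the genes nearest in pattern (smallest root mean square difference of log2 values, each gene taken from its own mean, out of 11709 genes averaging 1 FPKM or more) were mostly not matrix genes. For Vcan they were Rpp25 (0.0828) and Fv1 (0.0836). For Hapln1 they were Ackr3, an atypical chemokine receptor (0.188), and Sh3gl3 (0.193), and for Has2 they were Hmcn1, which encodes the matrix protein hemicentin (0.0918), and Mks1 (0.093). Bgn was nearest to Mfap4, a protein of elastic fibres (0.0815), and to Ccdc80 (0.0895), both also expressed by fibroblasts. Dcn was nearest to Ndufb3 and Ide (0.0565 each), Lum to the protease gene Htra1 (0.169) and Nsg1 (0.179), Fmod to Myrf (0.189) and Rbp7 (0.199), and Ogn to LOC689130 (0.0812) and Dnajb4 (0.0865). Acan was below 1 FPKM on average and was not matched. For genes with a wide difference between groups, such as Vcan, the measure is set largely by that difference. Bgn hardly differed between groups and was lowest in the libraries numbered 4. Mfap4 was low in them too, at 75.5 FPKM in CON and 73.7 in HG, against group means of 97.8 and 89.9.

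Several of the 9 genes lie beside relatives on the chromosome, in the gene order of RefSeq on GRCr8. Hapln1 and Vcan are adjacent on chromosome 2, and both were higher in HG. On their far sides lie Edil3, an endothelial matrix gene, which rose by 0.59 on the log2 scale (limma, adjusted p = 0.00323), and the DNA repair gene Xrcc4 at 0.11 (adjusted p = 0.412). Dcn and Lum are adjacent on chromosome 7, and both were lower, while Btg1 beside Dcn rose by 0.32 (adjusted p = 0.000176). Kera, on the other side of Lum, was below the filter, and Epyc, the next after it, had 0.22 (adjusted p = 0.54).

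Ogn lies on chromosome 17 next to Omd (-0.41, limma adjusted p = 0.392) and Aspn, 2 further leucine-rich genes, of which Aspn fell by 0.58 (adjusted p = 0.00321). The value of Omd rests on a mean of 0.1735 FPKM in CON. On chromosome 13 Fmod is next to Prelp, of the same class, at -0.18 (adjusted p = 0.145). On chromosome 1 Acan is next to Hapln3, another link protein gene, at -0.44 (adjusted p = 0.166), a value that rests on a mean of 0.233 FPKM in CON. Bgn lies on chromosome X beside Haus7, which rose by 0.46 (adjusted p = 0.000197). Has2 on chromosome 7 lies beside Sntb1 at -0.31 (adjusted p = 0.197).

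**Figure D4:**
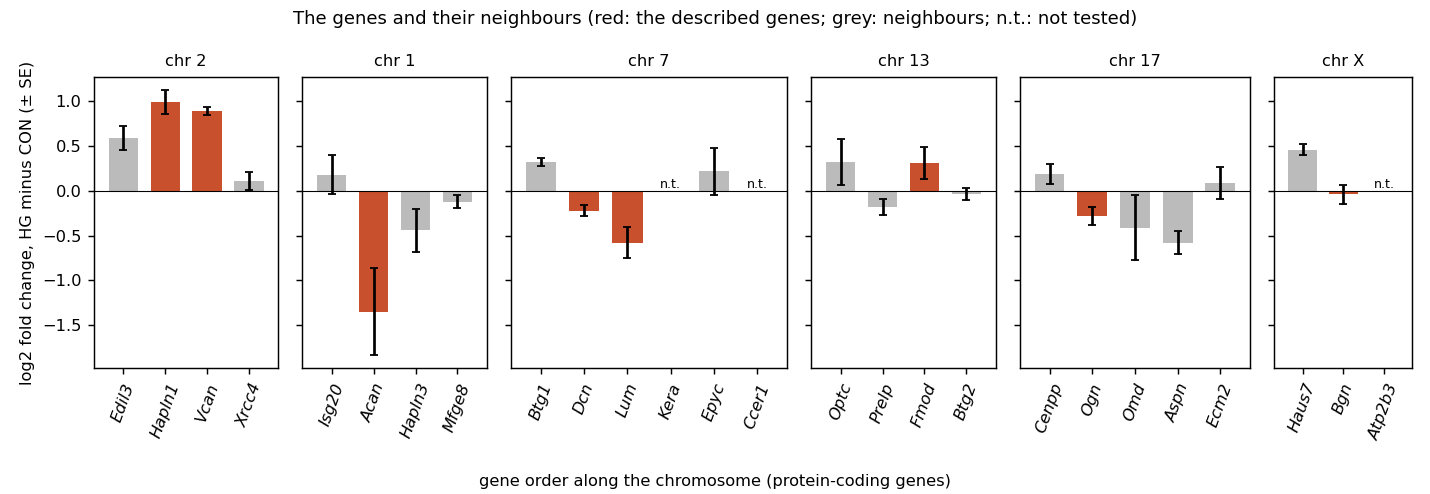
Log2 fold change (HG minus CON) with its SE for the described genes (red) and the protein-coding genes beside them (grey), in chromosome order and without a distance scale, with n.t. for genes not tested. Adjacent Hapln1 and Vcan both stand near 1 (0.99 and 0.89), and adjacent Dcn and Lum both stand below 0 (-0.22 and -0.58), beside Btg1 at 0.32 and the untested Kera.

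Around the 9 genes, 106 genes of the same biology were listed, of which 105 were in the table and 91 passed the filter. In HG, 31 of the 91 rose and 8 fell, 42.9% in all beside 40.1% of all genes tested, and their median log2 fold change was 0.08 beside 0.09. With median-of-ratios factors 23 rose and 13 fell, with a median of -0.01, and with quantile normalization 22 rose and 10 fell. The lists as a whole thus stood close to the background, and single genes in them moved both ways.

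Genes of hyaluronan turnover came first. Of the genes of its synthesis, Has1 was below the filter, and of the 3 tested 1 rose and 0 fell (median -0.06). Ugp2, the most abundant and a maker of UDP-glucose, had -0.06 (limma, adjusted p = 0.417). The gene that rose was Ugdh, which makes the UDP-glucuronate that hyaluronan and chondroitin chains are built from, at 18.4 ± 0.671 FPKM in CON and 20.8 ± 1.14 in HG, a log2 fold change of 0.18 (limma, adjusted p = 0.00841). The call of Ugdh was lost with median-of-ratios factors (adjusted p = 0.12) and with quantile normalization (adjusted p = 0.0938). Of 5 genes of breakdown, 2 rose and 0 fell (median 0.35). Cemip2, a cell-surface hyaluronidase, rose from 4.67 ± 0.141 to 7.98 ± 0.563 FPKM, a log2 difference of 0.76 (adjusted p = 2.95e-06), and Cemip, which also takes part in hyaluronan degradation, rose by 0.56 (adjusted p = 0.00993). Hyal2, the most abundant of them, had 0.14 (adjusted p = 0.0927).

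Of 8 tested hyaluronan receptors and binding proteins, 3 rose and 0 fell (median 0.03). Hmmr, a hyaluronan-binding protein of the mitotic spindle, rose by 0.45 (limma, adjusted p = 0.000792), the scavenger receptor gene Stab1 by 0.39 (adjusted p = 0.00677) and Cd44, the main cell-surface receptor, by 0.25 (adjusted p = 0.0161). The call of Cd44 was lost with median-of-ratios factors (adjusted p = 0.104) and with quantile normalization (adjusted p = 0.17). The inter-alpha-trypsin inhibitor genes Itih1 and Itih3 were below the filter, and Itih2 was not analysed here. The remaining lectican and link protein genes were nearly silent, with 2 of 5 tested (Bcan and Hapln3) and 0 called.

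Of 7 proteases that cleave versican or aggrecan, 2 rose and 0 fell (median 0.08). Adamts4 rose from 1.96 ± 0.12 to 3.19 ± 0.255 FPKM, a log2 difference of 0.68 (limma adjusted p = 5.75e-05) and Adamts1 from 11 ± 0.515 to 13.6 ± 0.568 FPKM (0.31, adjusted p = 0.000345). Adamts5 and Adamts9, both versican-cleaving in the embryo, had 0.08 (adjusted p = 0.492) and 0.13 (adjusted p = 0.0698). Adamts8 had -0.29 (adjusted p = 0.156), Adamts15 -0.08 (adjusted p = 0.548) and Adamts20 0.03 (adjusted p = 0.814). With these, every protease of the list is named. Transcripts of these enzymes say nothing of cleaved protein, which was not measured.

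Of the 24 tested enzymes that build and sulfate chondroitin and dermatan chains, 8 rose and 1 fell (median 0.07). Dse, the epimerase that turns chondroitin into dermatan, rose by 0.47 (limma, adjusted p = 0.00101), Chst3, a sulfotransferase, by 0.34 (adjusted p = 0.00227), Papss1, which makes the sulfate donor, by 0.32 (adjusted p = 0.000419), and the chain polymerase gene Chsy1 by 0.20 (adjusted p = 0.000839). Ust, which sulfates uronic acid residues, fell from 1.45 ± 0.0919 to 0.853 ± 0.118 FPKM, a log2 difference of -0.71 (adjusted p = 0.000389). B3gat3, the most abundant of the list, which adds a sugar of the linkage region, had -0.02 (adjusted p = 0.729). With median-of-ratios factors the list had 7 higher and 2 lower genes.

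**Figure D5:**
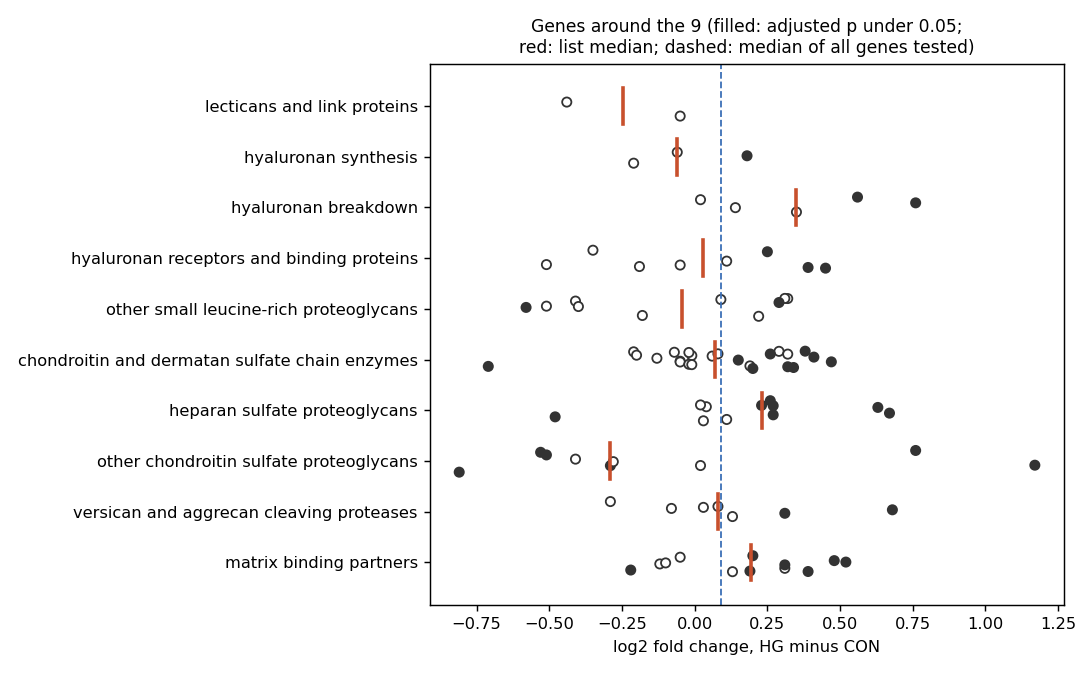
Log2 fold change (HG minus CON) of the 91 tested genes around the 9, by list (vertical scatter only separates points). Filled points have an adjusted p under 0.05, red marks are list medians, and the dashed line is the median of all genes tested (0.09). The list medians run from -0.29 (other chondroitin sulfate proteoglycans) to 0.35 (hyaluronan breakdown), with filled points on both sides of 0 in 5 of the 10 lists.

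Of 10 other tested leucine-rich proteoglycans, 1 rose and 1 fell (median -0.04). Asporin (Aspn) fell from 9.51 ± 1.58 to 6.32 ± 1.01 FPKM, a log2 difference of -0.58 (limma adjusted p = 0.00321), and Tsku rose by 0.29 (adjusted p = 0.00861, and 0.0523 with quantile normalization). Of 9 other chondroitin sulfate proteoglycans, 2 rose and 4 fell (median -0.29). Tgfbr3, the TGF-beta co-receptor betaglycan, fell by 0.51 on the log2 scale (adjusted p = 6.31e-05), Cspg4, a pericyte proteoglycan, by 0.29 (adjusted p = 0.000887), Cspg5 by 0.81 (adjusted p = 0.00155) and Prg4, the lubricin gene, by 0.53 (adjusted p = 0.0137). Esm1, an endothelial tip-cell proteoglycan, rose from 0.638 ± 0.227 to 1.53 ± 0.309 FPKM, a log2 difference of 1.17 (adjusted p = 0.001). Ptprz1 rose by 0.76 (adjusted p = 0.02, and 0.0543 without HG library 3). Its level was near the filter, at 0.1145 FPKM in CON and 0.2685 in HG.

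Of 11 tested heparan sulfate proteoglycans, 6 rose and 1 fell (median 0.23), and with median-of-ratios factors 3 rose and 1 fell. Syndecan-1 (Sdc1) rose from 8.88 ± 1.13 to 14.1 ± 1.15 FPKM, a log2 difference of 0.67 (limma adjusted p = 9.88e-05), Gpc2 rose by 0.63 (adjusted p = 0.000345) and agrin (Agrn), a basement membrane proteoglycan, by 0.27 (adjusted p = 0.00195). Gpc6 rose by 0.23 (adjusted p = 0.00469), a call lost with median-of-ratios factors (adjusted p = 0.054) and quantile normalization (adjusted p = 0.0557). Glypican-1 (Gpc1) fell from 57.9 ± 2.39 to 41.5 ± 3.95 FPKM, a log2 difference of -0.48 (adjusted p = 9.07e-05). Perlecan (Hspg2), the most abundant of the list, had 0.03 (adjusted p = 0.748).

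Of 12 tested binding partners of these proteoglycans, 6 rose and 1 fell (median 0.20), and with median-of-ratios factors 4 rose and 4 fell. Fibronectin (Fn1) rose from 125 ± 4.49 to 175 ± 20.2 FPKM, a log2 difference of 0.48 (limma adjusted p = 0.000225), tenascin C (Tnc) by 0.39 (adjusted p = 0.00373), Tgfb3 by 0.52 (adjusted p = 0.00554) and Tgfb2 by 0.31 (adjusted p = 0.00206). Collagen III (Col3a1), bound by decorin and lumican, fell from 519 ± 33.9 to 445 ± 22.8 FPKM (-0.22, adjusted p = 0.00464). Collagen I (Col1a1) had -0.12 (adjusted p = 0.115), and with median-of-ratios factors -0.21 (adjusted p = 0.0195).

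Cell type markers moved between the groups as well, and their part in the values of the 9 genes was not tested. Of 10 fibroblast markers, of which Col1a1, Col3a1 and Col1a2 were the most abundant, 3 rose (Pdgfra, Tcf21 and Ddr2) and 3 fell (Col3a1, Postn and Thy1). Their summed level was 1720 to 2030 FPKM in CON and 1569 to 1828 in HG, and 1821 to 2030 and 1680 to 1828 without both libraries numbered 4. Of 8 markers of valve and cushion mesenchyme, with Postn, Tbx20 and Twist1 the most abundant, 2 rose (Twist1 and Prrx1) and 1 fell (Postn). Their sums were 315 to 368 and 274 to 347 FPKM, and 338 to 368 and 294 to 347 without both libraries numbered 4, which had the lowest sum of their group for both lists. Of 4 endocardial markers 3 rose (Plvap, Npr3 and Nfatc1) and 1 fell (Cytl1), with sums of 35.9 to 49.2 FPKM in CON and 54.1 to 75.7 in HG that did not overlap. Of 5 smooth muscle markers 3 rose, Acta2, Tagln and Cnn1, with sums of 681 to 802 and 912 to 1147 FPKM that did not overlap. The others of this list were not called, Myh11 at 0.24 (limma, adjusted p = 0.183) and Smtn at -0.06 (adjusted p = 0.494). Most of the sum was Acta2, at 538 ± 42.6 FPKM in CON and 673 ± 65.4 in HG. Of 9 cardiomyocyte markers, with Actc1, Myl2 and Tnnt2 the most abundant, 7 fell, with sums of 26136 to 27440 FPKM in CON and 20811 to 23992 in HG that did not overlap. Heart muscle markers had by far the highest sum in every library.

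Cartilage markers, which share Acan's best known tissue, had 2 of 8 higher, Col9a3 and Col2a1, which with Col9a1 were the most abundant. Their sums were 5.58 to 8.09 FPKM in CON and 6.52 to 16.1 in HG, and 7.56 to 8.09 and 12.3 to 16.1, without overlap, when both libraries numbered 4, the lowest of their groups, were left out. None of these 8 markers was called lower, and how cartilage content relates to the values of Acan was not tested. Snorc, named after its value was seen, had -0.41 (limma, adjusted p = 0.351). Only Col9a3 and Col2a1 averaged above 1 FPKM in CON, so the sums rest mostly on them. Red cell markers (Alas2, Ahsp and Slc4a1 the most abundant) had 4 of 6 lower, with sums of 60 to 110 and 40.7 to 57.8 FPKM, and liver markers (Alb, Afp and Ttr) had 4 of 6 lower, with sums of 3.15 to 80.1 and 1.33 to 2.6. Neither of these sums overlapped between groups.

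The sums of the other lists described here overlapped. Endothelium (Cdh5, Pecam1 and Tie1 the most abundant) had 2 of 7 higher, with sums of 266 to 288 FPKM in CON and 274 to 300 in HG. Epicardium and mesothelium (Tbx18, Msln and Wt1) had 2 higher and 1 lower of 8, with sums of 21.5 to 27 and 26.4 to 31.7 FPKM, and of 23.8 to 27 and 27.6 to 31.7, without overlap, when both libraries numbered 4 were left out. Pericytes (Rgs5, Pdgfrb and Notch3) had 2 of 5 lower (149 to 183 and 133 to 162), and macrophages (C1qa, C1qb and C1qc) 3 higher and 1 lower of 8 (38.6 to 50.4 and 46.8 to 59.1). Of thymus markers (Cd8a, Rag1 and Dntt), 1 passed the filter and was not called, with sums of 0.814 to 1.77 and 0.916 to 1.36 FPKM. Lung epithelium markers (Sftpc, Sftpa1 and Scgb1a1) summed to 0.148 FPKM at most.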

How the data were processed

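RNA of 10 fetal rat hearts (5 CON, 5 HG) was sequenced from stranded mRNA libraries, and the groups were taken from the sample labels. The authors deposited FPKM, reads scaled to gene length and library size, for 18025 genes. The submitters' processing notes name fastp, HISAT2, HTSeq, R 3.2.0 and the build mRatBN7.2, and the annotation release and the strand setting of counting are not given in the sources used here. The Methods speak of pooled RNA of the 10 samples, but libraries of a group differed by more than sampling noise (chi-square per gene of 5.94 to 11.8 between any pair, where sampling noise alone gives about 1).

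The differential test named in the Methods takes counts, so that the deposited FPKM were compared with limma 3.58.1 in R 4.3.3 instead, as log2(FPKM + 0.1) with a trend on expression and no covariate. Genes averaging 0.1 FPKM or more (14542) were tested, and 3483 lay below. P-values are two-sided and were adjusted by Benjamini-Hochberg over all genes tested. In simulated libraries of 5 against 5 (14467 genes), the fit called 92 of 99 genes changed by 1 on the log2 scale, 63 of 98 changed by 0.5 and 8 of 14270 unchanged ones. The simulation gave every gene the same added spread between libraries, few changed genes and no outlying library. Its counts therefore do not carry over to these data, where the SD of Acan was 44.2% of its mean in CON and 52.5% in HG. The reads behind the FPKM were recovered from their steps (whole multiples within 0.02 reads for 100% of genes) and used for depth and for 1 alternative, voom. Depth was 16672876 to 19109844 reads per library, so that a gene near 0.1 FPKM rests on few reads.

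The 9 genes and all lists were chosen with earlier results of these data known. Genes were named by rule: the 9, of each related list up to 4 called genes in each direction by adjusted p and the most abundant, of each marker list the 3 most abundant, and the 2 nearest in pattern, besides chromosome neighbours, genes that spell out a small count, and genes marked as chosen later. The result of 1 marker list is not reported here. Upstream sequences and gene order came from RefSeq (GRCr8), matched by symbol, and no GRCr8 position was compared with the authors' build. The settings varied were the pseudocount (1 and 0.01), the filter (none, or an average of 1 FPKM), the scaling (median-of-ratios, quantile, or without hemoglobin genes), the variance model (no trend, array weights, voom), covariates (summed Y chromosome genes, or replicate number as block), a stricter call rule, and the libraries (each left out, and both numbered 4). Python 3.11.15 with pandas 2.3.3 and numpy 2.4.6 read the values, and matplotlib 3.10.9 made the plots.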

Additional observations from a re-analysis of the deposited data

Results flagged for a closer look

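Among 48 groups of 5 libraries (the 9 genes and 15 marker sums), 7 had a library far from the other 4 by Dixon's criterion, where chance gives about 1 in 20. Vcan was at 31.9 FPKM in CON library 5, against 28.3 to 29.2 in the other CON libraries. Acan was at 0.246 FPKM in CON library 4, against 1.33 to 1.44. Lum was at 34.1 FPKM in CON library 4, against 55.8 to 59.5, and at 23 in HG library 4, against 36.1 to 41.1. The summed cartilage markers were at 5.58 FPKM in CON library 4, against 7.56 to 8.09. The summed liver markers were at 80.1 FPKM in CON library 3, against 3.15 to 8.1, and the summed lung epithelium markers at 0.148 FPKM in CON library 2, against 0 in the others. The part of other tissue in these values was not tested.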

How the results depend on the processing

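Over the 23 alternatives that kept the rule of an adjusted p under 0.05, the number of the 9 genes called ran from 4 to 7, and Vcan (log2 fold change 0.80 to 0.92), Hapln1 (0.89 to 1.11), Dcn (-0.31 to -0.19) and Lum (-0.73 to -0.44) stayed called in each of these 23. Acan (-1.77 to -0.61) lost its call in 12 of 22, and it could not be fitted under the filter at an average of 1 FPKM. Ogn (-0.37 to -0.21) lost its call in 10, and Has2 (0.22 to 0.44) gained one in 6. Bgn (-0.15 to 0.02) and Fmod (0.08 to 0.42) were called in none of the 23. Of all genes, 5836 (40.1%) were called in the main fit. Under the 23 alternatives it was 4822 (median-of-ratios factors) to 6001 (array weights). The 9 genes were chosen on this contrast and every setting reuses the same libraries, so nothing is read from which of them stayed called. The ranges of fold changes also cover the ratio of mean FPKM, which has no test. With an absolute log2 fold change above 1 required besides, 282 genes were called in place of 5836, 1 of the 9 in place of 6 (Acan) and 1 of the related genes in place of 39 (Esm1). Leaving out each library in turn gave 5059 to 5620 genes, 34 to 40 related genes and 4 to 6 of the 9. Voom on the recovered reads called 5960 genes. Fitting the replicate number as a block gave 5096 genes, 39 related genes and 6 of the 9. Same-numbered libraries correlated at -0.126 to 0.108 after removal of the group means, and pairs of different number at -0.156 to 0.213. These correlations gave no sign of pairing by number, but they cannot exclude a shared factor that acts on few genes. By the criterion given below, the libraries numbered 4 had 11 genes low in both, and the other pairs 0 to 9. The replicate block lowered the SE of Acan, Hapln1, Has2, Bgn, Lum and Ogn and raised that of Vcan, Dcn and Fmod. Whether same-numbered samples were handled together was not tested. Of 1379 recomputed values of 60 genes, 30 lost a call (7 genes), 12 gained one (5 genes) and 0 reversed. Single calls of Acan, Has2 and Ogn therefore depend on these settings, with 5 libraries a group and 6 to 216 reads for Acan.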

Other observations

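The libraries numbered 4 shared low values in further genes. In both of them 11 genes averaging 1 FPKM or more were under 0.7 times the next lowest library of their group, where the 24 other pairs of a CON and an HG library had 0 to 9 such genes. They were Fbln5, Eln, Ccn5, Sost, Sfrp2, Cckar, Prss35, Igfbp2, Col2a1, Lum and Spp1, all chosen by their values. Sost, a secreted Wnt antagonist, was at 0.739 FPKM in CON library 4 against 3.6 to 6.25, and at 2.2 in HG library 4 against 4.53 to 5.65. Sfrp2, another Wnt antagonist, was at 3.78 against 11.7 to 16.8 FPKM in CON and at 5.76 against 11.8 to 15.9 in HG. Spp1 (osteopontin) was at 1.95 FPKM in HG library 4 against 22.1 to 24.2, while in CON it was low in libraries 3, 4 and 5 (2.76, 1.68 and 2.68) and at 29.8 and 31.5 in libraries 1 and 2.

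By the GO terms in the deposited table, hyaluronic acid binding was held by Vcan, Acan and Hapln1, and of the 15 tested genes with this term 6 rose and 1 fell (limma, adjusted p under 0.05), with a median log2 fold change of 0.11. Collagen fibril organization was held by Acan, Lum and Fmod, and 15 of its 49 tested genes rose and 8 fell (median 0.1). Extracellular matrix was held by 6 of the 9, and 50 of its 206 tested genes rose and 30 fell (median 0.06). These counts include the described genes, which were chosen on this contrast. For hyaluronic acid binding, Vcan and Hapln1 are among the 6 that rose, and Acan is the 1 that fell. Over all genes tested 28.4% were called higher and 11.8% lower, and nothing is read from the counts beside these shares.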
